A study of Homo sapiens with 16 samples.

Results

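The RNA of C4-2B cells was mapped for N6-methyladenosine (m6A) from 4 peak lists, those of the immunoprecipitated (IP) libraries of C4-2B replicates 1 to 4, out of 8 such lists and 16 libraries in the series. C4-2B is an established human prostate cancer line that responds to androgen and is sensitive to the antiandrogen enzalutamide. The authors describe it as a metastatic derivative of the LNCaP line that is independent of androgen. The cells were labelled wild type, grew in RPMI with 10% fetal bovine serum and were harvested on day 3, and the labels give no further treatment. In MeRIP-seq, RNA is broken into short fragments, fragments carrying m6A are pulled down with an antibody, and the pulled-down RNA is sequenced beside unenriched input RNA. Each list held the intervals in which IP reads exceeded input, called by the authors separately for each replicate, and all 84466 peaks of the 4 lists were used. The labels do not say whether the replicates were separate cultures, so the spread between them may be technical, and all values describe this line alone.

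m6A is placed on nascent RNA by a writer complex whose catalytic subunit, METTL3, is paired with METTL14 and guided by adaptors such as WTAP, VIRMA, ZC3H13 and RBM15. It is removed by the demethylases FTO and ALKBH5 and bound by reader proteins, among them the YTHDF family, which affect the stability and translation of the RNA. The writer prefers a short motif named DRACH, of which GGAC is the most used core, and m6A in mRNA is known to cluster in long internal exons and around stop codons.

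Libraries differed before any result. Lists of replicates 1 to 4 held 13191, 24746, 23254 and 23275 peaks, so that replicate 1 stood apart with the fewest. The peak values allowed the number of IP tags (reads kept after removal of duplicates) at each summit and the input background there to be recovered, and relative IP depth was 1.17, 1.00, 0.928 and 0.9 times the mean. Replicate 1 thus had the most IP depth and the fewest peaks. Its input was smaller than its IP, at 0.747 times the tags, against 1.22, 1.17 and 1.06 times in replicates 2 to 4, and the part of that imbalance in its short list was not tested. Library totals were not computed; tags at separate summits alone came to 0.718, 1.01, 0.933 and 0.916 M (mega), which bound the IP libraries from below. Tags below are scaled to the mean IP depth, and the input background is given on the same scale. The label of the line was checked against markers. Of 11 prostate luminal markers, 9 had an exonic peak in at least 1 list, while KRT8 and KRT18 had none. A region in all 4 lists was found for 5 of them, KLK2, HOXB13 and CDH1 included. Basal (0 of 3) and neuroendocrine (0 of 5) markers had no exonic peak. COL1A1, PDGFRB, VWF, CDH5 and CD14 had a region in some lists and none in all 4. Over all protein-coding genes the share was 40.5% for any list and 26.9% for all 4, so a few markers without a peak tell little. A gene without a peak has no level in these files, so absence of a peak does not tell low abundance from low methylation.

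The sequences below come from genes among the 10 highest by −log10 p or by fold enrichment, described further on. They were read from hg38 on the strand of the gene, 5′ to 3′ and with T for U, with every GGAC in capitals. Windows of 101 nt are centred on the strongest summit, and untranslated sites are limited to 29 nt around the nearest GGAC. The motif was not present in all of them: 6 of the 10 by −log10 p and 8 of the 10 by fold had GGAC within 50 nt of the summit, and TRIM56, SOX4, GADD45G, SNRNP35, HES2 and DLK2 did not. PHF3 is shown as the highest by −log10 p, TRIM56 and SNRNP35 as coding windows without GGAC, DIDO1 for its 5 copies, and RNF168 and PNMA1 as further members of that ranking. LRFN2 and AUTS2 are shown as the highest by fold, and NR2F1 and RETREG1 as further members of that ranking.
PHF3 (chr6:63713322-63713422, plus strand, CDS of the last exon): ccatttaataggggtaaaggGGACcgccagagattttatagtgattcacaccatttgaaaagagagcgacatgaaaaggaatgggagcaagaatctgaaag
TRIM56 (chr7:101088395-101088495, plus strand, CDS of the last exon): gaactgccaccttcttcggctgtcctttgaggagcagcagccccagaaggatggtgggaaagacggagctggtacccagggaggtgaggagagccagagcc
RNF168 (chr3:196472166-196472266, minus strand, CDS of the last exon): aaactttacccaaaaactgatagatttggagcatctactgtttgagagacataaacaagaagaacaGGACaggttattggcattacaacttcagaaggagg
DIDO1 (chr20:62879535-62879635, minus strand, CDS of the last exon): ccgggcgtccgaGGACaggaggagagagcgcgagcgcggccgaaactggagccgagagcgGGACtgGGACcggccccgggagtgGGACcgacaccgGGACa
SNRNP35 (chr12:123466021-123466121, plus strand, CDS of the last exon): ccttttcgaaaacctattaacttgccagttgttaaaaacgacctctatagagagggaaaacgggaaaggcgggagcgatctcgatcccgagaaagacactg
LRFN2 (chr6:40392113-40392213, minus strand, CDS of the last exon): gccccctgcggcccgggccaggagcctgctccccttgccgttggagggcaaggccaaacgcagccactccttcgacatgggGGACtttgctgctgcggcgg
AUTS2 (chr7:70790725-70790825, plus strand, CDS of the last exon): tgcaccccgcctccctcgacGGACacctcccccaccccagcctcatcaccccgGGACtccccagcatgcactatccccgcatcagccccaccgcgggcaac
RETREG1 (chr5:16474897-16474997, minus strand, CDS of the last exon): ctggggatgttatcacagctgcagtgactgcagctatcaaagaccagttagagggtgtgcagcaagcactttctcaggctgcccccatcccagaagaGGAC
PNMA1 (chr14:73713800-73713828, minus strand, 5′UTR): gagtgcacctacGGACtgactgtgggggc
NR2F1 (chr5:93593909-93593937, plus strand, 3′UTR): ccaaagccgcggGGACaccgggaagtgca

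How many m6A regions recurred between replicates was asked first. Peaks of the 4 lists that shared at least 1 bp were merged into 30142 regions covering 21.4 Mb. Of these, 11222 regions (37.2%) were held by all 4 lists, 6039 (20%) by 3, 4759 (15.8%) by 2 and 8122 (26.9%) by 1. A region of 3 lists nearly always lacked replicate 1, in 5532 of 6039 cases (91.6%). Without replicate 1, 16759 regions were held by all 3 remaining lists. The short list of replicate 1 lay almost wholly inside the longer ones: 93.8% of its peaks fell in regions of all 4 lists, against 47.4% to 52.3% of the peaks of replicates 2 to 4.

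Regions of more lists were wider, carried more tags and lay more often in coding sequence. From 1 list to 4, median width rose over 304, 426, 544 and 917.5 nt. A merged region spans all of its peaks, so part of this rise follows from the merging itself. Single peaks had a median width of 493 to 517 nt in the 4 lists. Median IP tags rose over 10.0, 13.3, 20.9 and 49.5, and median input background over 0.6, 0.928, 1.68 and 3.54 tags. The number of lists therefore moved with the amount of the transcript in the input, and its part in the next shares was not tested. Among regions on annotated chromosomes, 15.7% of those in 1 list had their strongest summit in coding sequence (95% Wilson interval 14.9 to 16.5%), against 40.5% of those in all 4 (39.6 to 41.5%). Intronic summits went the other way, from 41.2% to 16%. Within each list, peaks in 4-list regions exceeded peaks found in that list alone by 28.5, 21.7, 24.4 and 27.7 percentage points for coding sequence (25.6 ± 3.12, SD, n = 4). For introns they were lower by a mean of 25.7 ± 2.13 percentage points (SD, n = 4). Both differences had the same direction in 4 of 4 lists, with an exact two-sided sign-flip permutation p = 0.13, the smallest that 4 lists allow, so that no difference over lists could pass 0.05. The 4-list regions are the same in every list, and 39.6 to 40.5% of their peaks lay in coding sequence. These differences thus share 1 arm, and the lists are not independent replicates of them.

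**Figure D1:**
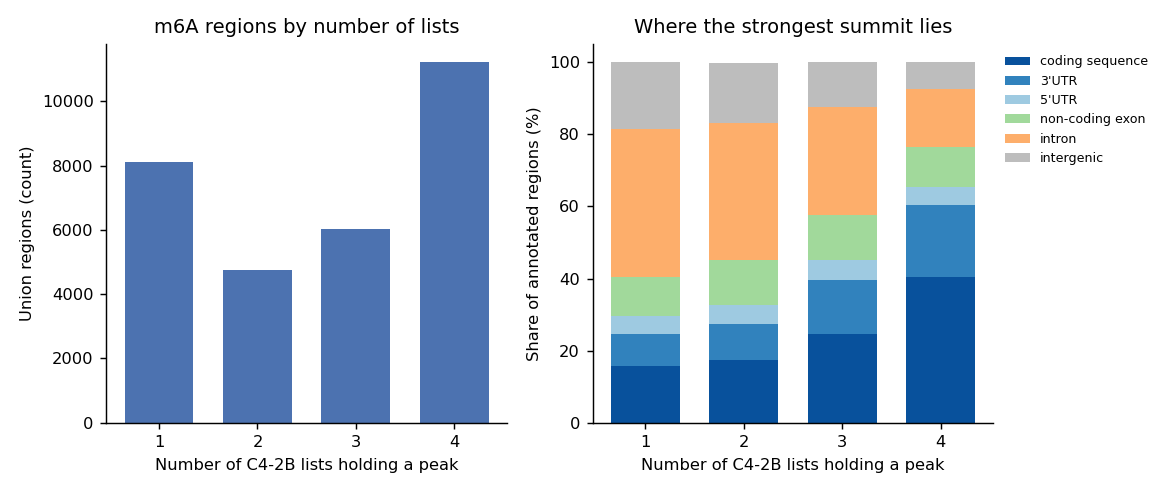
Left, number of merged C4-2B regions (count) held by 1, 2, 3 or 4 peak lists. Right, share (%) of those regions whose strongest summit lay in each annotated class; coding sequence takes 15.7% of regions in 1 list and 40.5% of regions in all 4, and intron 41.2% and 16%.

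The 11222 regions of all 4 lists gave closely ranked signal. Over the 6 pairs of lists, Spearman's rho across these regions was 0.973 to 0.978 for scaled IP tags, 0.869 to 0.883 for input background, 0.810 to 0.866 for −log10 p and 0.604 to 0.654 for fold enrichment. These are descriptions across regions that share transcripts and libraries, not tests. The coefficient of variation of IP tags over the 4 lists had a median of 14.8% (9.14 to 24.5% between its percentiles 10 and 90). Where each list held a single peak (9422 regions), the 4 summits spanned a median of 56 nt, and 68.8% spanned no more than 100 nt. Replicate 1 lay below the others in scaled tags: its median was 40.3 against 51.8, 52.8 and 53.3. It had the fewest scaled tags in 9468 of the 11222 regions (84.4%). Its background was the highest in 44.9% of them, and its fold enrichment the lowest in 67.9%. The order of tags depends on the division by recovered IP depth, 1.17 in replicate 1 and 1.00, 0.928 and 0.9 in the others. Before that division PHF3, the highest region by −log10 p, had 271, 259, 263 and 244 tags in replicates 1 to 4.

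IP tags, background and fold did not move together. When the 11222 regions were divided into 4 equal groups by mean background, median background rose over 0.866, 2.37, 5.10 and 12.5 tags and median IP tags over 20.3, 38.3, 62.0 and 103. Median fold enrichment was 11.4, 12.3, 11 and 7.31. Fold was thus lowest in the group with the most input, and differed little among the others. Background is the denominator of fold, so fold and background are tied by definition. A region of low background also needs a higher fold to be called. IP tags rise with both the amount of a transcript and the share of its copies that carry m6A, and these cannot be told apart here. GGAC within 50 nt of the strongest summit was found in 51.4%, 50.1%, 48.6% and 48.8% of the exonic regions of the 4 groups. Intronic regions, left out of these shares, made up 32.8% of the group with the least input and 3.53% of that with the most.

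Position along the mRNA was measured on the canonical transcript of each coding gene, on which 7406 to 11095 summits per list could be placed. Summits gathered at the end of the coding sequence. Within 200 nt of the stop codon lay 27.9%, 27.4%, 28.7% and 28.2% of summits in replicates 1 to 4, although that stretch held 10.5 ± 0.210% of the length of the same transcripts (SD, n = 4). The excess was 17.6 ± 0.553 percentage points (SD, n = 4), present in 4 of 4 lists (exact two-sided sign-flip permutation p = 0.13). The last 200 nt of coding sequence took 15.5 ± 0.227% and the first 200 nt of 3′UTR 12.6 ± 0.299% of summits (SD, n = 4). In steps of 50 nt the highest mean shares lay just before the stop codon. They were 4.45 ± 0.273% of summits 51 to 100 nt before it and 4.35 ± 0.123% 1 to 50 nt before it (SD, n = 4). The order of these 2 was reversed in replicate 2, at 4.05% and 4.28%. The end of the transcript was nearly empty: the last of 40 equal parts of the 3′UTR held 0.0495 times the summits its length predicts, against 3.78 times in the part next to the stop codon and 3.40 times in the last part of the coding sequence.

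**Figure D2:**
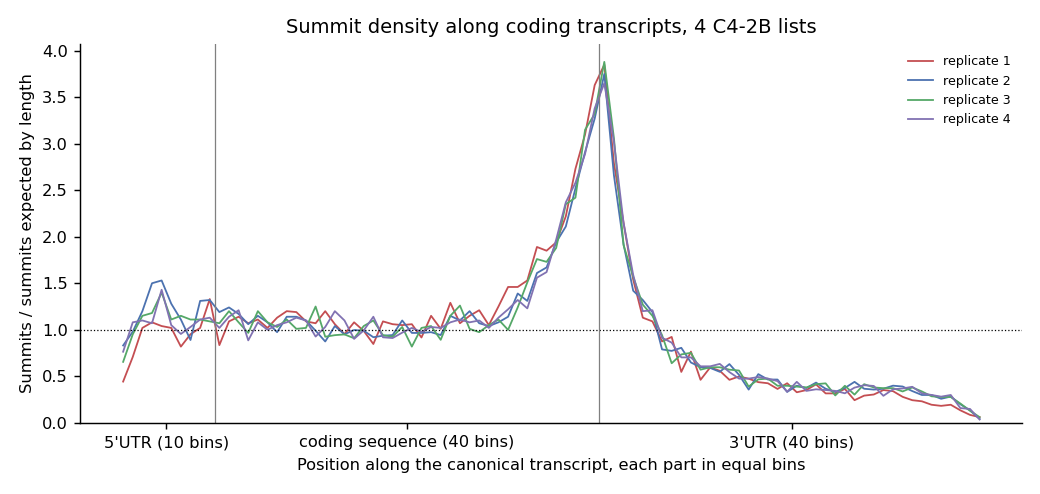
Summit density along canonical coding transcripts, as observed summits over those expected from length (y axis), with 5′UTR, coding sequence and 3′UTR each divided into equal bins (x axis) and 1 line per C4-2B list. All 4 lines peak at the stop codon, where the mean is 3.78, and fall to 0.0495 at the 3′ end.

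Summits were placed in 3′UTRs less often than length predicts (30.6 ± 0.845% of summits on 45.5% of the length) and in coding sequence more often (62.8 ± 1.21% on 48.4%; SD, n = 4). The 5′UTR took 6.58 ± 0.611% of summits (SD, n = 4) on 6.14% of the length. No excess was seen at the transcript start, where the share within 200 nt differed from the length share by −1.68, 0.441, −0.155 and −0.436 percentage points, with signs that differed between lists (exact sign-flip permutation p = 0.5). Among peaks in regions of all 4 lists that share was 3.15 ± 0.132% (SD, n = 4) on 5.18% of the length. It was below the length share in 4 of 4 lists, which hold the same regions here and are not independent. Last exons held 62.8 ± 2.02% of summits (SD, n = 4) on 57.8% of the length, an excess of 4.99 ± 1.01 percentage points that was positive in 4 of 4 lists.

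Within internal coding exons the signal sat in long exons. Exons of 400 nt or more held 87.9%, 72.6%, 77.6% and 78.5% of the internal coding summits in replicates 1 to 4, while they made up 44.6 ± 2.91% of internal coding sequence in the same transcripts (SD, n = 4). The excess was 34.5 ± 3.47 percentage points (SD, n = 4; 4 of 4 lists, exact two-sided sign-flip permutation p = 0.13). The median internal coding exon with a summit was 710 ± 69.7 nt long (SD, n = 4). Over all 159522 internal coding exons the median was 123 nt, and 2.11% reached 400 nt. A long exon offers more room for a summit, and the length share used here accounts for that within the transcripts that had summits.

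The GGAC core was searched within 50 nt of each exonic summit on the strand of the gene. It was present at 48.3%, 46.6%, 46.7% and 47.2% of exonic summits in replicates 1 to 4. In windows of the same width 300 nt away along the genome it was present in 29 ± 0.401% (SD, n = 4). In the summit windows read on the opposite strand it was present in 27.0 ± 0.371% (SD, n = 4). Distant windows did not follow splicing, so those of exonic summits can lie in introns. The part of this in the values against distant windows was not tested. The excess was 18.2 ± 0.745 points over the distant windows and 20.2 ± 1.08 points over the opposite strand (SD, n = 4; each in 4 of 4 lists, exact two-sided sign-flip permutation p = 0.13). GGAC was present at 47.1 ± 0.520% of summits in coding sequence, 49.3 ± 1.89% in 3′UTRs, 49.6 ± 0.659% in 5′UTRs and 43.4 ± 0.869% in non-coding exons (SD, n = 4). Intronic summits had it less often, at 36.3 ± 0.873% (SD, n = 4), which was 11.2 ± 0.836 points over distant windows. On the opposite strand at intronic summits it was 30.3 ± 0.802% (SD, n = 4). Regions of more lists held it more often, in 40.7%, 41.9%, 44.5% and 49.4% of exonic regions of 1, 2, 3 and 4 lists. Within lists, 4-list peaks exceeded peaks of that list alone by 28.0, 7.65, 8.04 and 9.02 points, the first value resting on only 29 exonic peaks private to replicate 1. Without replicate 1 the mean excess was 7.57 points. Here too the 4-list regions are the same in every list.

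The members of the DRACH family were not enriched alike. GGACU, present at 16.9 ± 0.573% of summits and 8.52 ± 0.140% of distant windows (SD, n = 4), had the highest ratio at 1.98. GGACA followed at 1.83, AGACU at 1.69, GAACU at 1.65 and GGACC at 1.56. Of the 18 DRACH pentamers, 15 were more frequent at summits in 4 of 4 lists, down to AAACC at 1.02. The 3 pentamers that begin with UA were less frequent at summits in 4 of 4 lists, with ratios of 0.868, 0.847 and 0.817 for a last base of A, C and U. Windows overlap in composition and share pentamers, so the ratios are a description.

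The motif was not centred on the summit. GGAC density was highest 0 to 19 nt downstream of it, at 7.58 ± 0.305 per 1000 positions, and averaged 6.78 ± 0.167 over the 150 nt downstream against 5.29 ± 0.120 over the 150 nt upstream (SD, n = 4; higher downstream in 4 of 4 lists). On the opposite strand it was 2.75 ± 0.161 at 0 to 19 nt. The base composition moved at the same place: U made up 23.2 ± 0.0957% of bases in the 20 nt before the summit and 18.6 ± 0.265% in the 20 nt after it. It rose again 1 fragment length downstream, from 21.1 ± 0.252% just before that point to 26.7 ± 0.206% past it (SD, n = 4). That length is the one by which the peak caller had extended the reads and was 293, 285, 285 and 272 nt in replicates 1 to 4, and the step lay at each list's own value. The part of this composition in the GGAC excess was not tested. With windows placed at the middle of that fragment the excess was 14.1 points over distant windows and 18.1 points over the opposite strand, in 4 of 4 lists. The stop codon excess with positions taken there was 16.8 points, also in 4 of 4 lists. Distances along the transcript given in this report are those of summits, not of the motif.

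**Figure D3:**
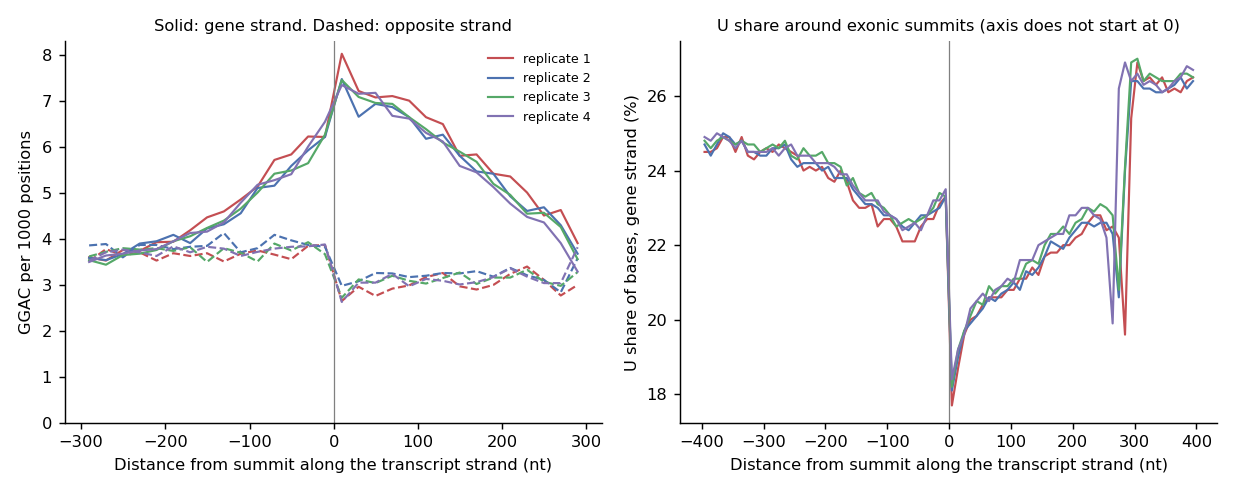
Left, GGAC density (copies per 1000 positions) by distance from the summit (nt, along the transcript) on the gene strand (solid) and the opposite strand (dashed), 1 line per C4-2B list. Right, U share of bases (%; axis does not start at 0) around exonic summits; it falls at the summit from 23.2% to 18.6% and rises to 26.7% at each list's fragment length of 272 to 293 nt.

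Regions of all 4 lists were ranked within lists by −log10 p and, separately, by fold enrichment, with 1 region per gene. The 10 highest by −log10 p lay on PHF3, TRIM56, SOX4, RNF168, DIDO1, TIGD5, GADD45G, PNMA1, SNRNP35 and RBM12B. PHF3, which binds the C-terminal domain of RNA polymerase, had scaled IP tags of 232, 258, 283 and 271 in replicates 1 to 4, over a background of 15.1, 9.82, 11.6 and 13.6. Its fold enrichment was 19.8 ± 4.32 (SD, n = 4). The region, chr6:63711476-63713800, had its summit 336 nt before the stop codon in a last exon of 14426 nt.

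TRIM56, a ubiquitin ligase of innate immune signalling, carried 153, 191, 192 and 190 IP tags over 4.59, 5.73, 4.61 and 2.34 background tags (chr7:101086740-101090081). After scaling, replicates 2 to 4 were nearly equal and replicate 1 lay lowest, while the unscaled tags were 179, 192, 178 and 171. RNF168, which ubiquitinates histones at DNA breaks, carried 220, 281, 270 and 276 tags over a mean background of 16.8 ± 5.72, with the summit 397 nt before the stop codon. DIDO1, a chromatin-binding protein with a PHD finger, had the most tags of the 10, at 258, 300, 314 and 321, over 37.8, 20.5, 16.6 and 25.2 in the background (chr20:62878991-62882534). SOX4, a transcription factor of the HMG-box family with a single exon of 4869 nt, carried 223, 267, 289 and 281 tags, with its summit in the 3′UTR 736 nt past the stop codon. In each of these regions IP tags exceeded background in every list without overlap, as being called a peak requires.

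TIGD5, derived from a transposase, had 140 to 170 tags over 4.59 ± 1.5. GADD45G, a growth-arrest gene induced by stress, had 146 to 179 over 5.27 ± 0.501, with the summit 90 nt past the stop codon. SNRNP35, a protein of the minor spliceosome, had 192 to 232 over 13.2 ± 3.60. RBM12B, an RNA-binding protein, had 158 to 221 over 8.03 ± 3.13 (SD, n = 4). PNMA1, a paraneoplastic antigen, was the only one of the 10 with its summit in a 5′UTR, 1225 nt before the stop codon and in its only exon, at 178 to 234 tags.

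None of these genes was among the 10 highest by fold enrichment, and 20 regions were shared between the top 100 of each ranking. Fold put forward LRFN2, AUTS2, DOK3, NR2F1, TBC1D8-AS1, HES2, PTH1R, GFOD1, DLK2 and RETREG1, with little input background. LRFN2, a synaptic adhesion protein, carried 114, 129, 139 and 129 IP tags over 2.29, 1.40, 2.77 and 1.43 background tags, with fold enrichments of 33.4, 54.5, 36.4 and 51.2. Its summit lay 220 nt before the stop codon. NR2F1, an orphan nuclear receptor, had 79.7, 109, 117 and 129 tags over 2.35, 1.64, 1.05 and 1.05, and folds of 23.1, 41.6, 55.7 and 60.1. The folds of NR2F1 varied more between lists than its tags, over a background of 1.05 to 2.35 tags.

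Several of these summits lay near the stop codon, although this was no more frequent than elsewhere: 26 of the 83 placed regions among the top 100 by fold (31.3%) and 27 of 93 by −log10 p (29%) lay within 200 nt of it, against 1900 of 6555 over all exonic regions of 4 lists (29%). AUTS2, a gene of neuronal development, had 58.2 to 88.9 tags 221 nt before the stop codon in exon 19 of 19. RETREG1, a receptor for autophagy of the endoplasmic reticulum, had 112 to 165 tags 206 nt before it, and GFOD1 had 90.8 to 116 tags 123 nt before it. PTH1R, the parathyroid hormone receptor, had 39.4, 53.8, 52.8 and 54.4 tags over 0.672, 0.335, 0.335 and 0.320 background tags, 140 nt before the stop codon. DOK3, an adaptor of immune receptors, and HES2, a transcriptional repressor, had theirs 171 and 115 nt past it. DLK2, related to Notch ligands, differed, with its summit in the 5′UTR in an exon of 131 nt. TBC1D8-AS1, an antisense RNA, had 48.8 to 80.7 tags over 0.747 ± 0.183 (SD, n = 4), and peaks carry no strand, so these tags were assigned by annotation.

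**Figure D4:**
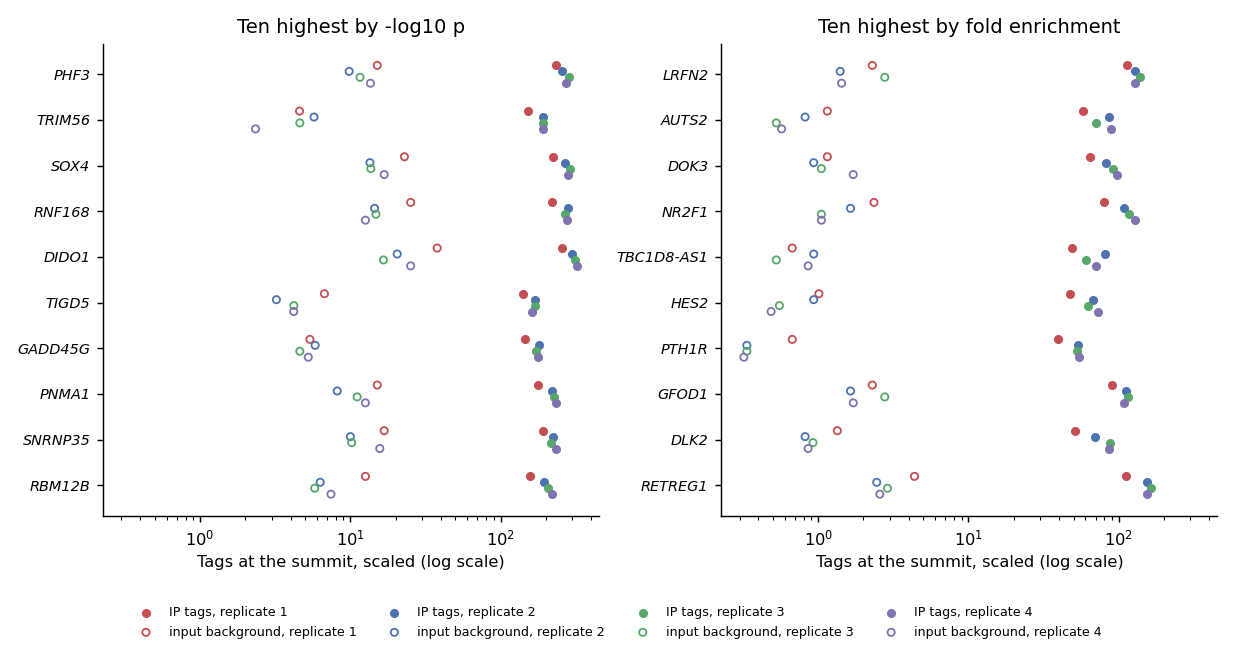
Scaled IP tags (filled points) and input background (open points) at the summit, on a log axis, in each of 4 C4-2B replicates for the 10 highest genes by −log10 p (left) and by fold enrichment (right). Genes on the left reach 140 to 321 IP tags; those on the right reach 39.4 to 165 and have a background of 0.320 to 4.37 tags.

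Both rankings led to last exons. Of the top 100 exonic regions by −log10 p, 72 of the 93 that could be placed lay in a last exon (77.4%), and of the top 100 by fold 70 of 83 (84.3%), against 66.8% of all exonic regions of 4 lists. GGAC was within 50 nt of the summit in 73.0% and 68.0%, against 49.4%. Median background was 8.24 tags in the first set, 1.77 in the second and 4.76 in all.

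Among 20033 protein-coding genes, 5384 (26.9%) had at least 1 exonic region in all 4 lists, and 8118 (40.5%) in any list. Of these 5384, 3997 had 1 region, 1069 had 2, 236 had 3 and 82 had 4 or more. Genes with a region had longer exons: the longest exon had a median of 2468.5 nt against 1133 nt in genes without, and the transcript 4182 against 2477 nt. Among 18866 lncRNA genes, 652 (3.46%) had such a region.

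The highest count was 6, reached by 7 genes, among them TNRC18, SPG7, FAT1, BICD1, SHROOM2 and KMT2D. ALPK3, BCAR1, CLK3, WDR33, TNKS1BP1, ZC3H13, MIDEAS and LATS2 followed with 5; 25 genes reached 5 or more, and those with 5 described here have the highest −log10 p at that count. KMT2D, a histone H3 lysine 4 methyltransferase with 55 exons, had a region in exons 1, 11, 35, 40, 49 and 55, with mean IP tags of 34.2 to 109. The exons that held them were 1141 to 2895 nt long. FAT1, a giant protocadherin, had 3 of its 6 regions in exon 10 of 4068 nt and 1 in exon 2 of 3283 nt, and its 2 remaining regions in exons 25 and 27. TNRC18 had 5 in coding exons of 361 to 1665 nt and 1 in its 5′UTR.

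Long single exons were not the only layout. SHROOM2, an actin-binding protein, had a region in each of exons 4, 5, 6 and 7 and 2 in exon 10, of which exon 5 was 101 nt long and carried 24.0 ± 3.08 tags (SD, n = 4). LATS2, a kinase of the Hippo pathway, had the most regions per length of the 15 genes with most regions, at 0.891 per kb of exon. Its regions lay in exons 2, 4, 5, 6 and 8, with 88.9 ± 12.9 tags in exon 2 and 29.7 ± 7.27 in exon 6 (SD, n = 4). In SPG7, a mitochondrial protease gene, 5 of 6 regions, and in CLK3, a splicing kinase gene, 4 of 5 fell in exons of annotated non-coding transcripts. For those 2 genes the count depends on the annotated isoforms. Without replicate 1, 8 of these 15 genes remained among the most frequent, and without replicate 4, 9 did.

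Part of the m6A machinery had regions itself, the writers at a share near those of other groups described below. These were chromatin regulators (71.2%), immediate early genes (72.4%) and ZNF genes (76.6%). Of 12 writer genes, 9 (75%) had a region in all 4 lists, with the background of 26.9% for all protein-coding genes. The writers hold long exons, with a median longest exon of 2094 nt against 1476 nt over all protein-coding genes, and the part of exon length was not tested. ZC3H13, which anchors the complex in the nucleus, had 5 regions in coding exons 10, 12, 14, 15 and 19, and its strongest carried 161, 193, 207 and 201 tags. WTAP, the adaptor, had 3 regions, of which the strongest had 107, 133, 130 and 140 tags. METTL16, a separate methyltransferase, had 133, 165, 163 and 157 over a background of 10.4 ± 1.37 (SD, n = 4). RBM15 and RBM15B had 149 ± 18.5 and 218 ± 23.8 tags, CBLL1 138 ± 8.88, PCIF1 65.6 ± 9.19 and VIRMA 50.9 ± 9.69 (SD, n = 4). METTL14, the partner of METTL3, was lowest, with 31.7, 55.8, 48.5 and 36.7 tags (43.2 ± 11, SD, n = 4). METTL3 had a region in 1 list alone, and METTL5 and ZCCHC4 had none. All but 1 of the 16 writer regions lay in coding sequence, and 10 had GGAC at the summit.

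Of 15 reader and eraser genes, 7 (46.7%) had a region in all 4 lists, with a Wilson interval of 24.8 to 69.9% that includes the 26.9% of all protein-coding genes. The 3 cytoplasmic readers YTHDF1, YTHDF2 and YTHDF3 were among them, with 146 ± 14.9, 217 ± 23.2 and 117 ± 15 tags, all in coding sequence. YTHDF2 had the highest input of the 3, at 44.2 ± 3.30, and the lowest fold, at 4.86 ± 0.727, while YTHDF3 had an input of 7.67 ± 1.54 and a fold of 14 ± 3.64 (SD, n = 4). The erasers ranked lower: FTO had 61.7, 69.7, 71.1 and 78.9 tags and ALKBH5 66.0, 111, 131 and 108, with folds of 4.49 ± 1.87 and 2.85 ± 0.721. IGF2BP3 had 35.7 ± 8.72 and PRRC2A 73.7 ± 13. YTHDC1 and IGF2BP2 had a region in 3 lists, and IGF2BP1, HNRNPA2B1, HNRNPC and FMR1 had none.

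Of 39 genes of luminal prostate identity and androgen response, 18 (46.2%) had a region in all 4 lists and 28 in any, with 29 regions in all. Over all protein-coding genes the share was 26.9% for all 4 lists and 40.5% for any. FOXA1, a pioneer factor that opens chromatin, had 232, 279, 287 and 280 tags over a high input of 43.6 ± 10.1, with a fold of 6.33 ± 1.63. GATA2 had 229 ± 24.9 over 45.2 ± 6.76 and GRHL2 173 ± 22.1 over 23.9 ± 4.25. HOXA13 had fewer tags, 92.8 ± 6.80, over only 3.18 ± 1.66, which gave the highest fold of these, 24.9 ± 10.7. ZBTB10, an androgen-responsive zinc finger gene, had 3 regions and the highest percentile by −log10 p of the group, with 181, 216, 221 and 224 tags. Among secreted and membrane proteins, KLK2, a kallikrein protease induced by androgen, had 225, 262, 275 and 284 tags over 66.8 ± 9.53 in its 3′UTR, a fold of 3.93 ± 0.713. STEAP2 had 156 ± 21.8 tags and SLC45A3 95.7 ± 11.3 (SD, n = 4). KLK3, which encodes prostate-specific antigen, KLK4 and TMPRSS2 had a region in 3 lists, and none in all 4.

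Chromatin regulators and immediate early genes had regions more often than the 26.9% of all protein-coding genes. Of 73 chromatin regulators, 52 (71.2%) had a region in all 4 lists, 110 regions in all, of which 89 lay in coding sequence. NSD1, a histone H3 lysine 36 methyltransferase, had 4 regions, the strongest with 151, 179, 192 and 197 tags over 9.15 ± 2.95. KMT2B had 3, with 170 ± 18.8 tags over 9.53 ± 0.983, and SETD1B had 5, with 114 ± 13.2 tags over 13.8 ± 2.24 at the strongest (SD, n = 4). Of 29 immediate early genes, which respond within minutes to growth factors, 21 (72.4%) had a region. JUN, a subunit of the AP-1 factor and a single-exon gene, carried 150, 184, 189 and 177 tags 104 nt before its stop codon. ZFP36L2 and ZFP36L1, which bind AU-rich 3′UTRs and promote decay, had 105 ± 13.9 and 107 ± 16.3 tags, and KLF4 had 2 regions with 57.6 ± 7.74 at the strongest (SD, n = 4). FOS, FOSL1, EGR2, EGR3 and NR4A2 had no region in any list. Median longest exons were 2794 and 1929 nt in the 2 groups.

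The zinc finger genes named ZNF were the largest group and had the highest share of the groups listed here, with 389 of 508 (76.6%, against 26.9% of all protein-coding genes) having a region in all 4 lists and 530 regions in all. Of these, 378 lay in coding sequence. Many ZNF genes are known to place their finger array in 1 long last exon, and the median longest exon here was 3216.5 nt. GGAC was within 50 nt of the summit in 35.1% of ZNF regions, against 49.4% of all exonic regions of 4 lists. ZNF865 had 140, 175, 191 and 179 tags over 6.65 ± 3.22, and ZNF827 114, 135, 151 and 149 over 3.79 ± 1.02, a fold of 29 ± 5.12 (SD, n = 4). ZNF276 had the most regions among those named, with 5, and ZNF609 had 4. ZNF coding exons resemble one another in sequence, and uniquely mapped reads alone were kept, so copies with near-identical fingers are uncertain.

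In the group of suppressors of cytokine signalling and STAT factors, 6 of 19 genes (31.6%, Wilson interval 15.4 to 54%) had a region in all 4 lists, a share near the 26.9% of all protein-coding genes. All 6 were suppressors: SOCS2, SOCS4, SOCS5, SOCS6, SOCS7 and CISH. SOCS6 had 72, 106, 111 and 116 tags over 3.74 ± 1.51, and CISH 53.8 ± 6.28 over 1.41 ± 0.283 (SD, n = 4). SOCS3 had a region in 2 lists, and SOCS1, the JAK kinases and the STAT factors had none in any list.

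Genes of the ribosome and of oxidative phosphorylation had regions less often than the 26.9% of all protein-coding genes. Of 86 cytosolic ribosomal protein genes, 6 (6.98%) had a region in all 4 lists, and of 76 nuclear genes of oxidative phosphorylation 5 (6.58%). Both groups have short exons, with medians of the longest exon of 313 and 293 nt. None of these 11 regions had its summit in coding sequence. RPL37, a protein of the large ribosomal subunit, had 93.8 ± 9.22 tags in a 3′UTR, 4568 nt past its stop codon in a last exon annotated as 7312 nt long. RPL30 had 56.8 ± 5.26 in a 5′UTR of a transcript other than the canonical one. NDUFS7, of complex I, had 63.4 ± 10.7 in a non-coding exon, and ATP5PF, of ATP synthase, 53.0 ± 7.72 at a position that also belongs to another gene (SD, n = 4). RPL7L1, one of the 6, is related to a ribosomal protein by name and is not a core subunit.

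Of 36 long non-coding RNAs, 7 (19.4%) had a region in all 4 lists, with the background of 3.46% for all lncRNA genes. The median longest exon of the group was 4226 nt, and the part of exon length was not tested. NORAD, a long RNA that binds PUMILIO proteins, had 149, 201, 197 and 184 tags over 32.8 ± 9.17. TUG1, 1 of the 7, is annotated as a protein-coding gene and so is not in the background of 3.46%. It had 4 regions, the strongest with 119 ± 9.11 tags, and LINC00662 had 3, with 66.2 ± 8.39 (SD, n = 4). MALAT1, an abundant nuclear RNA in which m6A is well known, had none in all 4. It had 2 regions in replicates 2, 3 and 4 (chr11:65499013-65499688 and chr11:65500023-65500736). They had 275, 284 and 288 tags over 195 ± 19.2 and 366, 420 and 399 tags over 252 ± 26.2, with folds of 1.45 ± 0.111 and 1.58 ± 0.145 (SD, n = 3). MALAT1 thus combined tag counts in the range of those of DIDO1 or above it with the lowest folds described here.

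**Figure D5:**
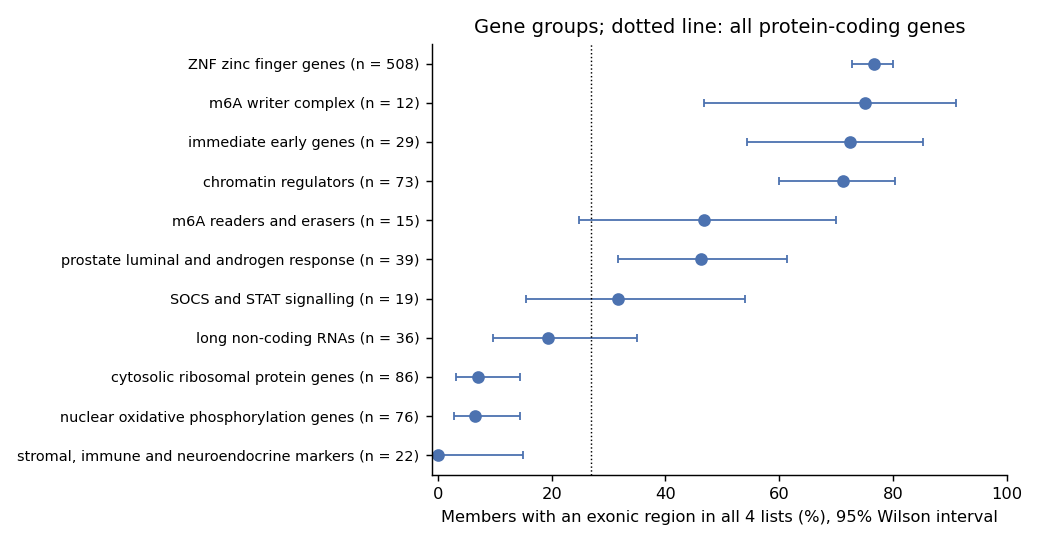
Share (%) of the members of each gene group with an exonic region in all 4 C4-2B lists (points) with 95% Wilson intervals over genes, which cover counting error only. The dotted line is 26.9%, the share of all protein-coding genes; the share of all lncRNA genes was 3.46%. Groups run from 76.6% of ZNF genes to 0 of 22 stromal, immune and neuroendocrine markers.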

How the data were processed

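MeRIP-seq libraries of C4-2B were prepared by the authors from RNA of about 100 nt with a stranded total RNA kit. Per their methods and processing notes, reads were aligned to hg38 with STAR 2.7.0 and GENCODE 39, uniquely mapped reads without duplicates were kept with SAMtools 1.10, and peaks of each IP over input were called with MACS2 3.0.0a6. The deposited lists hold a ratio (IP over the local input background, called fold here), a −log10 p, a −log10 q and a score, which is the −log10 q times 10. The lowest −log10 q was 2.00 to 2.11.

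IP tags and background at each summit were solved from fold and p, which gave whole tags for 100% of peaks in all 4 lists (relative tolerance 0.0001), against 0.25% to 1.5% of a sample of peaks with a wrong scale. The stated extension of 100 nt and genome size of 300 Mb did not match the lists: the narrowest peak was 293, 285, 285 and 272 nt, background values lay on steps of that length in 76.6% to 79.1% of those examined (43.6% to 43.9% with 100 nt), and the stated size would give libraries smaller than their own summit tags. Depth is therefore relative. Dim peaks rest on few tags, the lowest summits holding 4 to 6.

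Summits on chromosomes 1 to 22, X and Y were classed with GENCODE 44 over all transcripts (coding sequence before 3′UTR, then 5′UTR, other exons and introns); 577 to 1198 peaks per list on other contigs were not annotated. Where a gene had a canonical coding transcript (19919 models), positions were taken on it. Regions were ranked by mean within-list percentile. Named genes were the 10 highest by each ranking, the genes with most regions (up to 15), and per gene list the 2 with most regions and the 2 highest by −log10 p, with up to 10 for the prostate, writer and reader lists, and MALAT1. Some genes that this rule names are not reported here. Members and lists were chosen with earlier results of these data known. Differences over lists were tested with exact two-sided sign-flip permutation tests at 0.05. Scripts were tested on simulated data. Tools were numpy 2.4.6, pandas 2.3.3, scipy 1.17.1 and bedtools 2.31.1. Alternatives were a stricter q, lists of equal size, other overlaps and windows, DRACH, 1 transcript per gene and leaving out each replicate.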

Additional observations from a re-analysis of the deposited data

Results flagged for a closer look

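In 69 groups of 4 replicate values, 13 had a sample whose gap to the nearest of the others exceeded, as a part of the range, Dixon's 95% critical value, and in each of the 13 that sample was replicate 1. Chance flags about 1 in 20 such groups, and the 13 are not independent, since most follow from the same list. Replicate 1 had 13191 peaks (23254 to 24746 in the others), a highest −log10 p of 160 (257 to 262) and a median background of 3.44 scaled tags per peak (1.85 to 2.10). Its peaks lay in coding sequence in 39.1% (30.2 to 30.6%) and in introns in 17.5% (25.2 to 25.7%), and its placed mRNA summits in coding sequence in 64.6% (62.0 to 62.4%). Of its peaks, 1.52% fell in regions of 2 lists (12.2 to 14.1%), 3.86% in regions of 3 (24.5 to 25.8%) and 93.8% in regions of 4 (47.4 to 52.3%). GGAC was present at 37.6% of its intronic summits (35.8 to 35.9%), and its GGAC share was 28.0 points higher in regions of 4 lists than in its own (7.65 to 9.02). TRIM56 had 153 scaled IP tags in replicate 1 (190 to 192) and PTH1R 39.4 (52.8 to 54.4). Both flags are on scaled tags: unscaled, replicates 1 to 4 had 179, 192, 178 and 171 for TRIM56 and 46, 54, 49 and 49 for PTH1R.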

How the results depend on the processing

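Of 84 alternatives, 79 were counted as the same and 5 as moved. A difference was counted as the same if its direction was kept, whatever its size. A number of regions or genes was counted as the same if it stayed within a set ratio of the main value. All 56 alternatives of the 7 differences over lists kept their direction in every list. Those counted as moved were all choices of genes, while the sizes of differences also changed, as given below. Of the 10 strongest genes by −log10 p, 0 remained when ranked by fold enrichment and 3 when ranked by the mean of both percentiles. Of the 15 genes with most regions, 5 remained when regions of at least 3 lists were counted. The share of regions held by all 4 lists, 37.2%, was 22.1% (8545 regions) with summits joined within 100 nt and 51.1% (8797) with lists of equal size. The stop codon excess was 11.1 points within 100 nt and the long exon excess 10.6 points for exons of 1000 nt or more. Leaving out each replicate in turn, 8 to 9 of the 10 strongest and 8 to 15 of the 15 genes with most regions remained. Regions held by all 3 lists then numbered 11470 to 16759 and genes 5406 to 6620, the highest without replicate 1. The other ranges were 18.0 to 18.4 points for GGAC against distant windows, 19.7 to 20.6 against the opposite strand, 17.4 to 17.8 for stop codons, 32.9 to 35.7 for long exons, 19.9 to 25.3 for coding sequence, −25.3 to −20.6 for introns and 7.57 to 12.2 for GGAC between regions of 4 and 1 lists. With DRACH in place of GGAC the values were 8.24, 16.2 and 8.44 points, against 18.2, 20.2 and 13.2 with GGAC. Windows placed at the middle of the fragment and the leave-one-out counts of the 10 and 15 genes were chosen after seeing the data. Regions of 1 list rest on a median of 10.0 scaled tags, so absence from a list is not detectable as absence of m6A. No paired analysis was possible because replicate numbers would pair samples of different groups and 1 group was used; the differences over lists are taken within each list.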
